A study of Homo sapiens with 19 samples.

Results

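The first 3 drug-free days of MYCN-high cells were examined by setting 2 libraries made on day 3 after doxorubicin was washed out against 2 libraries made at the end of 72 h of doxorubicin. These 4 libraries, called replicates B and C at each time as in the labels, were taken from the 19 RNA sequencing libraries of the series by their labelled time and MYCN level. The cells are SHEP TET21N, an established human neuroblastoma line with a MYCN transgene that doxycycline shuts off, and all 4 libraries came from cultures without doxycycline (MYCN-high). Doxorubicin was given at 0.1 µg/ml for 72 h, and the day 3 cultures had then spent 3 days in drug-free growth medium. Further MYCN-high libraries, 2 from untreated cells, 2 from day 8 and 2 from day 14 after washout, are used below as levels to compare with, and 4 MYCN-low libraries (doxycycline present, same drug schedule, 72 h and day 3) as a parallel comparison. The line is a tissue culture model with a transgene outside its own chromosomal setting, and no library of this comparison was kept in the drug for the 3 further days, so the removal of the drug and the passing of 3 days cannot be told apart.

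Doxorubicin poisons DNA topoisomerase II and leaves double-strand breaks, which activate the transcription factor p53. p53 induces CDKN1A, the inhibitor of cyclin-dependent kinases also known as p21, and the retinoblastoma family proteins that p21 keeps active then hold the cell cycle genes silent. Genes for DNA replication are repressed through E2F sites, and genes for G2 and mitosis through promoter elements called the cell cycle genes homology region (CHR), often with CCAAT boxes bound by NF-Y nearby. When damage signalling falls, these genes can be expressed again as cells re-enter the cycle.

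Promoters of 5 genes that rose between 72 h and day 3 are shown, because G2 and mitosis genes moved most as a group and their promoters carry a shared element more often than those of the DNA replication and p53 lists. Each sequence is the 250 bases before the RefSeq start (assembly GRCh38.p14), 5′ to 3′ on the gene's strand, with TTTGAA (the CHR core) and CCAAT in capitals on either strand, so that they also appear as TTCAAA and ATTGG.
CCNB1, chr5:69166900-69167149, plus strand: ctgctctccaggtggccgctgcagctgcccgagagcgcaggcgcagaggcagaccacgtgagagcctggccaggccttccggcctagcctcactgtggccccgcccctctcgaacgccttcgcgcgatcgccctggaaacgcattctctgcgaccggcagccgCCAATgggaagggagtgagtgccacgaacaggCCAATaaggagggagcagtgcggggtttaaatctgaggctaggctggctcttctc
KIF23, chr15:69414099-69414348, plus strand: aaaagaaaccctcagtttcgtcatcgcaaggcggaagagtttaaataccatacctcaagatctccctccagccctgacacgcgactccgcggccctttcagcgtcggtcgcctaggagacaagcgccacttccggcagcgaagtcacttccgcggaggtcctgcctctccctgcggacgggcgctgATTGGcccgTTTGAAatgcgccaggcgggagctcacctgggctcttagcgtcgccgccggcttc
ECT2, chr3:172750476-172750725, plus strand: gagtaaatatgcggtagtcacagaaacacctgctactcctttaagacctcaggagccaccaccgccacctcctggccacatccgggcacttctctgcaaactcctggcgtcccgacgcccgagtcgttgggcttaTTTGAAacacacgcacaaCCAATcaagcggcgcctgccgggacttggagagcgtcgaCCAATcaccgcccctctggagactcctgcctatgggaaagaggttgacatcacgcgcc
KIF11, chr10:92592880-92593129, plus strand: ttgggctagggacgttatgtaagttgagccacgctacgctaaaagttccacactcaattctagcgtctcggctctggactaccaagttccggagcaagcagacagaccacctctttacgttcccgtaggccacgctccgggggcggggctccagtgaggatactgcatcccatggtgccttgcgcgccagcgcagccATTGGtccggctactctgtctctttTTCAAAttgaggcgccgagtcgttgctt
MKI67, chr10:128126424-128126673, minus strand: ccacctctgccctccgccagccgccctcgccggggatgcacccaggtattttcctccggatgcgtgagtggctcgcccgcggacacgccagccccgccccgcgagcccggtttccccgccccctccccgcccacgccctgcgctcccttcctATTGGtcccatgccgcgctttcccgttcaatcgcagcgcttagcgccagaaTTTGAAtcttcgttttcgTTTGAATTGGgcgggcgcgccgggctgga
KIF23, ECT2 and KIF11 were picked by small p among the called G2 and mitosis genes with both motifs in this window. That they hold the motifs follows from this choice and is no result. Each of these 3 holds 1 TTTGAA, and MKI67 holds 2. CCNB1 holds 2 CCAAT boxes and no TTTGAA in this window, which says nothing of a variant of the element.

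Across the lists, the motifs were counted in windows from 250 bases before to 50 after the start, on both strands. TTTGAA was present in 27 of the 39 G2 and mitosis genes with a promoter in the table (69.2%). It was present in 1 of 44 DNA replication genes (2.27%), in 2 of 30 p53 targets (6.67%), in 10.4% of the 11174 tested genes with a promoter and in 15.4% of all 27305 promoters. CCAAT was found in 82.1% of the G2 and mitosis promoters, 52.3% of the DNA replication promoters and 50% of the p53 targets, beside 37% of the tested genes and 35.7% of all promoters. The E2F-type letters TTCCCGC or TTGGCGC were found in 61.4% of the DNA replication promoters, 20.5% of the G2 and mitosis promoters and 23.3% of the p53 targets, beside 14.4% of the tested genes and 9.33% of all promoters. TTTGAA and CCAAT stood together in 61.5% of the G2 and mitosis promoters and in 4.3% of the tested genes. These matches describe the sequence only. Genes of both kinds of promoter rose, as given below.

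The 4 libraries held 16530112 to 23578173 counts in genes. MYCN stood at 604 to 1416 CPM (counts scaled to the library total) in them and at 20.0 to 29.3 CPM in the 4 MYCN-low libraries. The replicates at 72 h were less alike than those at day 3: 477 of 14793 tested genes were over 2-fold apart between replicates B and C at 72 h, and 87 at day 3. Most cell cycle genes named below were lower in replicate B than in replicate C at 72 h. The ERCC spike-in RNA made up 0.0116% and 0.191% of counts in replicates B and C at 72 h, and 0.023% and 0.106% at day 3. The 16 adrenergic neuroblastoma markers summed to 141 and 209 CPM at 72 h and 221 and 262 CPM at day 3, most of it HAND2 (107 and 167, then 170 and 205 CPM), and PHOX2A, TH, DBH, ELAVL4 and TFAP2B were at 0 counts in all 4 libraries. The 16 mesenchymal markers summed to 2820 and 3250 CPM at 72 h and 3450 and 3200 CPM at day 3, with VIM the most abundant. The 10 leukocyte markers summed to 50.8 and 54.3 CPM at 72 h and 21.5 and 27.2 CPM at day 3, nearly all of it the lysosomal glycoprotein gene CD68, with CD3E, MS4A1 and CD14 at 0. The 6 epithelial markers summed to 8.69 to 11.2 CPM, and the 6 endothelial markers to 0.489 to 1.53 CPM with CLDN5 at 0.

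Between 72 h of drug and day 3 without it, genes of cell division came up from very low levels and a small set of genes went down. Of 14793 tested genes, 266 passed (1.8%), of which 253 rose (1.71%) and 13 fell (0.0879%), at an adjusted p of 0.05 in edgeR's quasi-likelihood test. All 266 had both day 3 libraries on one side of both 72 h libraries, as did 21.3% of all tested genes on the higher side and 19.3% on the lower side. Of the 253 that rose, 87 belonged to 4 cell cycle lists (G2 and mitosis, DNA replication, homologous recombination and Fanconi, replication-dependent histones), which have 175 tested members, a median log2 fold change of 1.56 and no member that fell. The median over all tested genes was 0.00.

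The calls rested on particular libraries. Without replicate B at 72 h, or without replicate C at day 3, no gene passed (1638 and 1001 genes at an unadjusted p under 0.05, against 1528 with all libraries). Without replicate B at day 3, 56 genes passed, and without replicate C at 72 h, 365. Scaled to the ERCC RNAs no gene passed (118 at an unadjusted p under 0.05), and the median of all genes moved to -0.76. The sign of all 253 higher and 13 lower genes was kept in each of these fits, except that 246 of the 253 remained above 0 under ERCC scaling. In libraries made from many cells, a change in the number of dividing cells and a change in the RNA of each cell cannot be told apart.

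**Figure D1:**
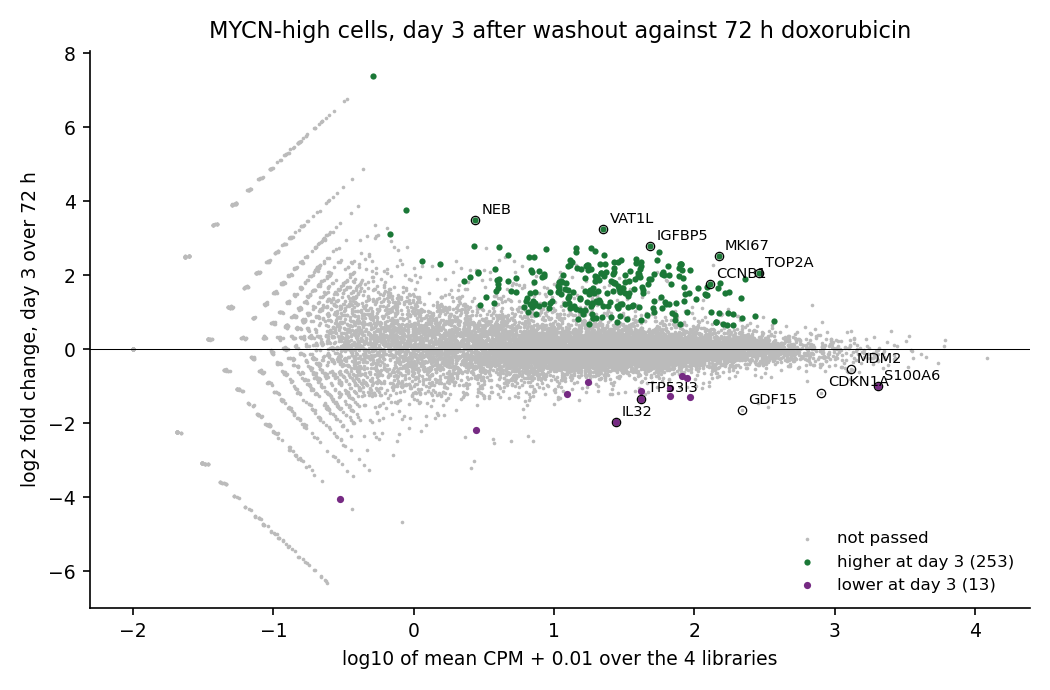
Log2 fold change from 72 h of doxorubicin to day 3 after washout (vertical axis) against the log10 of mean CPM over the 4 libraries (horizontal axis), 1 point for each of 14793 tested genes in MYCN-high cells. Green points are the 253 genes that rose and purple points the 13 that fell; CDKN1A, GDF15 and MDM2 are marked although they did not pass.

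CCNB1 encodes cyclin B1, the partner of CDK1 at entry into mitosis. It stood at 758 and 840 CPM in the untreated libraries, at 40.5 and 76.3 CPM at 72 h, and at 189 and 209 CPM on day 3, in the order of replicates B and C. Both day 3 libraries lay above both 72 h libraries and far below the untreated ones, with a mean at 24.9% of the untreated mean after 7.31% at 72 h. The log2 fold change was 1.77 ± 0.28 (SE, n = 2 libraries a time, adjusted p = 0.0066), or 3.41-fold in mean CPM. At day 8 it stood at 430 and 445 CPM, and at day 14 at 773 and 805 CPM.

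All 46 genes of the G2 and mitosis list were higher in both day 3 libraries than in both 72 h libraries, beside 21.3% of all tested genes, with log2 fold changes of 0.64 to 2.55 and a median of 1.96. Of the 46, 30 passed the test, beside 1.71% of all tested genes that rose. MKI67, the proliferation antigen Ki-67, rose from 14.4 and 74.7 CPM to 261 and 249 CPM (log2 fold change 2.52 ± 0.49). The 72 h libraries were over 5-fold apart here, and the day 3 libraries nearly equal. TOP2A, the topoisomerase II alpha that doxorubicin traps on DNA, rose from 38.5 and 183 CPM to 470 and 459 CPM (2.07 ± 0.47). The kinase CDK1 rose from 6.15 and 24.5 CPM to 68.4 and 59.3 CPM (2.06 ± 0.49). Cyclin A2 (CCNA2), which acts with CDK2 and CDK1, rose from 5.56 and 26.0 CPM to 59.6 and 70.3 CPM (2.05 ± 0.46). FOXM1, a transcription factor of the G2 and mitosis program, rose from 1.82 and 8.80 CPM to 18.9 and 29.1 CPM (2.18 ± 0.46).

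Genes of the spindle and of cell separation were among those that rose. NDC80, a kinetochore subunit that binds microtubules, went from 4.50 and 8.80 CPM to 40.0 and 37.7 CPM (2.55 ± 0.35). NUF2, its partner in the same complex and outside the list, went from 3.86 and 7.03 CPM to 30.4 and 37.6 CPM (2.65 ± 0.34). The motor genes KIF11, which pushes spindle poles apart, and KIF14, which acts in cytokinesis, rose with log2 fold changes of 2.29 ± 0.38 and 2.36 ± 0.33. KIF23, a subunit of the centralspindlin complex of the dividing midzone, went from 15.6 and 24.7 CPM to 77.5 and 87.5 CPM (2.03 ± 0.29). ECT2, the exchange factor that activates RhoA for the cleavage furrow, went from 38.9 and 49.1 CPM to 93.5 and 117 CPM (1.25 ± 0.21).

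Among the 16 members of this list that did not pass were the mitotic kinase PLK1 (1.85 ± 0.60, adjusted p = 0.19), the anaphase activator CDC20 (1.68 ± 0.59, adjusted p = 0.25) and the spindle kinase AURKA (1.40 ± 0.34, adjusted p = 0.051). In PLK1, replicate B stood at 1.40 CPM and replicate C at 13.4 CPM at 72 h, before 26.8 and 26.4 CPM on day 3. Every one of the 46 genes was still lower on day 3 than in untreated cells and passed that test (median log2 fold change -2.00), beside 15.7% of all tested genes lower and 30.8% different in either direction in that comparison. At 72 h, 17.9% of all tested genes had been lower than untreated, 18.3% higher and 36.2% different. Without replicate B at 72 h, or without replicate C at day 3, none of the 46 passed against 72 h, and without replicate B at day 3, 7 did. The list's median was 1.29 without replicate B at 72 h and 3.27 without replicate C at 72 h.

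**Figure D2:**
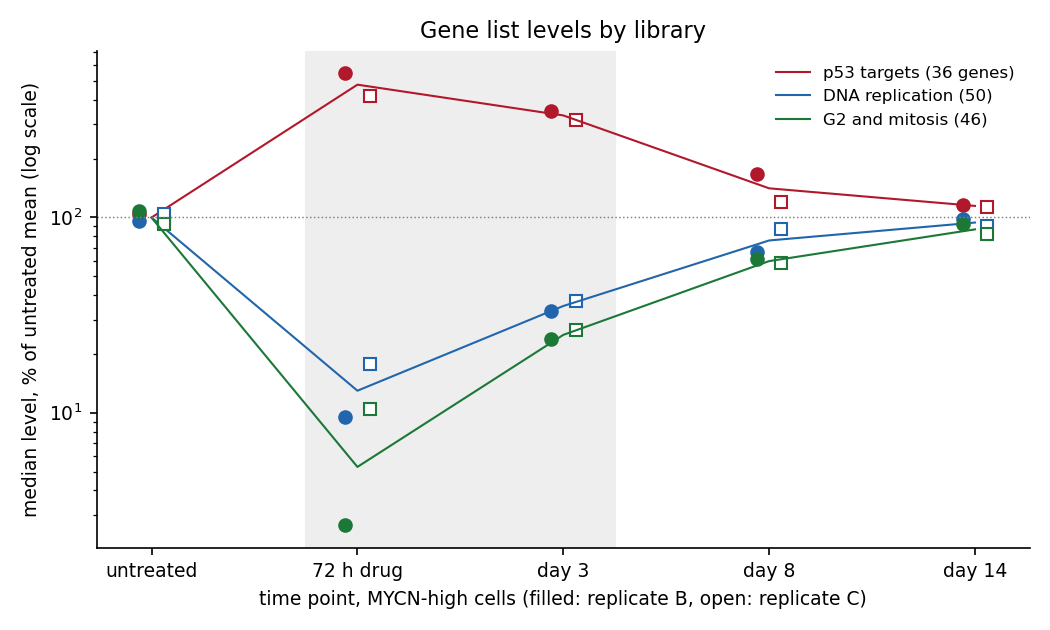
Median level of the genes of 3 lists in each MYCN-high library, as a percent of the untreated mean on a log scale, at 5 time points; filled circles are replicate B, open squares replicate C, lines join geometric means, and the grey band marks the 2 times compared. G2 and mitosis genes stood at 2.65% and 10.5% at 72 h and at 23.8% and 26.4% on day 3, and p53 targets at 547% and 419% and then 352% and 314%.

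Genes that copy DNA also came up. Of 50 tested members of the DNA replication list, 26 rose and none fell (1.71% of all tested genes rose), with a median log2 fold change of 1.29, and 49 of the 50 had both day 3 libraries above both 72 h libraries, beside 21.3% of all tested genes. Their median level was 9.49% and 17.7% of untreated at 72 h and 33.4% and 37.1% on day 3, and 48 of the 50 were still lower than in untreated cells, beside 15.7% of all tested genes. None passed without replicate B at 72 h or without replicate C at day 3, 5 passed without replicate B at day 3, and the median without replicate B at 72 h was 0.89.

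MCM3, a subunit of the replicative helicase, went from 51.2 and 81.0 CPM to 174 and 189 CPM (1.46 ± 0.22), with the 2 times well apart. MCM2, of the same helicase, rose by 1.11 ± 0.26, CDC45, which joins the helicase to start synthesis, by 2.25 ± 0.40, and the loading factor MCM10 by 2.19 ± 0.46. RFC4, a subunit of the clamp loader, went from 8.23 and 10.2 CPM to 26.1 and 28.4 CPM (1.56 ± 0.23). DSCC1, of an alternative clamp loader that acts in sister chromatid cohesion, rose by 1.64 ± 0.27, and TIMELESS, a fork protection protein, by 1.12 ± 0.16. RRM2, the regulated subunit of ribonucleotide reductase, went from 10.6 and 49.5 CPM to 138 and 130 CPM (2.16 ± 0.50). PCNA, the sliding clamp and also a p53 target, stood at 151 and 172 CPM at 72 h and at 167 and 188 CPM on day 3, so that its libraries overlapped (0.14 ± 0.19).

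Among regulators of S phase entry, CCNE2 (cyclin E2) rose from 2.29 and 9.47 CPM to 29.2 and 27.6 CPM (2.28 ± 0.51), and the transcription factors E2F2 and E2F8 rose by 2.76 ± 0.60 and 2.07 ± 0.48. CCNE1 (cyclin E1) stood at 14.6 and 18.8 CPM and then 25.4 and 28.5 CPM (0.69 ± 0.22, adjusted p = 0.19). E2F1 had 0.339 and 2.63 CPM at 72 h and 5.22 and 5.69 CPM on day 3 (1.90 ± 0.61, adjusted p = 0.18). CCND1 (cyclin D1), which drives the start of G1, was high at 72 h with 741 and 567 CPM and stood at 495 and 446 CPM on day 3 (-0.48 ± 0.25, adjusted p = 0.56); its day 3 libraries lay below its 72 h libraries.

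Homologous recombination and the Fanconi pathway mend double-strand breaks and crosslinks at replication forks. Of the 25 tested genes listed for them, 12 rose and none fell, beside 1.71% and 0.0879% of all tested genes. The list's median log2 fold change was 1.46. BRCA1 went from 15.4 and 27.2 CPM to 73.6 and 71.2 CPM (1.77 ± 0.27), and BRCA2, its partner in recombination, from 6.28 and 11.7 CPM to 33.4 and 32.4 CPM (1.88 ± 0.32). RAD54B, a DNA translocase of recombination, rose by 1.50 ± 0.23, UBE2T, the ubiquitin-conjugating enzyme of the Fanconi pathway, by 1.65 ± 0.25, and the end-resecting nuclease EXO1 by 2.31 ± 0.45. On day 3, 24 of the 25 were still lower than in untreated cells, beside 15.7% of all tested genes. None passed without replicate B at 72 h or without replicate C at day 3, 6 passed without replicate B at day 3, and the median without replicate B at 72 h was 0.92.

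Histone genes whose messages are made in S phase rose in 19 of 54 tested cases, beside 1.71% of all tested genes. None of the 54 fell, beside 0.0879% of all tested genes, and their median log2 fold change was 1.50. Their median level was 4.38% and 13.8% of untreated at 72 h and 22.4% and 28.6% on day 3, and by day 8 it was 96.1% and 118%. HIST1H1B, a linker histone, went from 2.80 and 28.6 CPM to 80.3 and 112 CPM (2.62 ± 0.61). HIST1H2AJ went from 7.76 and 21.2 CPM to 56.2 and 81.3 CPM (2.25 ± 0.38), and HIST1H3A from 0.551 and 0.813 CPM to 4.57 and 4.80 CPM (2.78 ± 0.42). HIST1H4L, HIST1H2AL, HIST2H3D and HIST1H2BM rose by 2.63 ± 0.53, 2.71 ± 0.60, 2.50 ± 0.42 and 2.50 ± 0.38. Reads of near-identical histone genes can be split between copies, so single members are uncertain, and most of these messages lack a poly(A) tail. None passed without replicate B at 72 h or without replicate C at day 3, 6 passed without replicate B at day 3, and the median without replicate B at 72 h was 0.92.

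**Figure D3:**
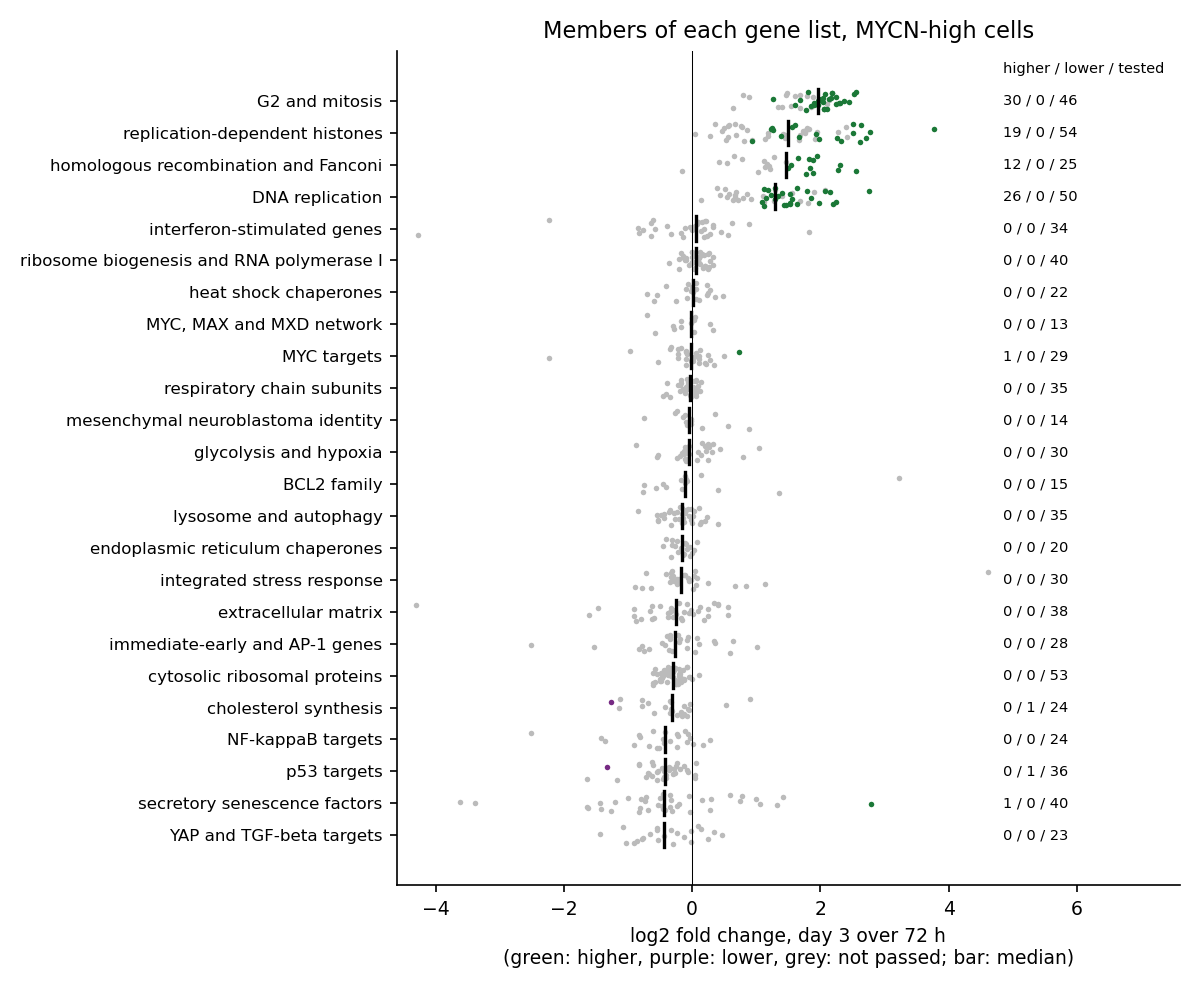
Log2 fold changes from 72 h to day 3 for the tested members of 24 gene lists in MYCN-high cells, 1 point a gene, with the list's median as a black bar and the numbers that rose, fell and were tested at the right. The 4 cell cycle lists have medians of 1.29 to 1.96, and the medians of the other lists lie near 0 or below.

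Outside the 4 lists, 166 genes rose. Several are known as partners of DNA replication or as genes that vanish in arrested cells. LMNB1, which encodes lamin B1 of the nuclear envelope and is lost in senescent cells, went from 13.2 and 32.7 CPM to 93.4 and 102 CPM (2.09 ± 0.32). HMGB2, a chromatin protein also lost in senescence, went from 29.0 and 109 CPM to 203 and 275 CPM (1.79 ± 0.40). WDR76 and the protease gene FAM111B rose by 2.75 ± 0.40 and 2.75 ± 0.53. Chosen after their values were seen, the histone methyltransferase EZH2 rose by 1.29 ± 0.23, the maintenance DNA methyltransferase DNMT1 by 0.99 ± 0.17, the chromatin remodeller HELLS by 2.00 ± 0.32, and UHRF1, which recruits DNMT1 to newly made DNA and belongs to the replication list, by 1.78 ± 0.37. The microtubule regulator STMN1 rose by 1.66 ± 0.35. HIST1H1T, the highest green point in the plot of all genes, had 0 counts in both 72 h libraries and 0.870 and 1.13 CPM on day 3, so its fitted value depends on the prior count.

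Some genes that rose stood above the untreated level on day 3, and VAT1L and ANK3 had already been above it at 72 h. VAT1L had 0.634 and 0.509 CPM in untreated cells, 6.24 and 2.30 CPM at 72 h and 54.1 and 27.5 CPM on day 3 (3.25 ± 0.70), and at day 14 it stood at 2.34 and 3.22 CPM. IGFBP5, a secreted binding protein of insulin-like growth factors, stood at 7.80 and 12.5 CPM untreated and 11.4 and 13.1 CPM at 72 h, and then at 105 and 64.5 CPM on day 3 (2.79 ± 0.57). It was higher still on day 8, at 222 and 172 CPM. At the end of treatment IGFBP5 had not passed against untreated cells (log2 fold change 0.27 ± 0.56, adjusted p = 0.74), and VAT1L had (2.90 ± 0.83, adjusted p = 0.013). IGFBP5 was the 1 gene that passed among 40 tested secretory senescence factors, beside 1.8% of all tested genes. The list's median was -0.43. Chosen after their values were seen, NEB, the actin-binding protein nebulin, had 0.636 and 0.239 CPM at 72 h and 5.27 and 4.80 CPM on day 3 (3.49 ± 0.59), with 1.07 and 0.527 CPM on day 8. ANK3, the membrane scaffold ankyrin-G, went from 86.6 and 93.1 CPM to 311 and 215 CPM (1.55 ± 0.24), beside 27.6 and 33.8 CPM untreated. FREM1, a basement membrane protein, went from 0.170 and 0.0957 CPM to 1.63 and 0.771 CPM (3.11 ± 0.73). When each of the 4 libraries was left out in turn, VAT1L, IGFBP5 and FREM1 lost their calls every time, and NEB and ANK3 kept theirs only without replicate C at 72 h.

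The p53 targets moved the other way, by less, and 1 of 36 passed (2.78%), beside 0.0879% of all tested genes that fell. CDKN1A stood at 23.5 and 22.9 CPM in untreated cells, 1193 and 1042 CPM at 72 h and 505 and 487 CPM on day 3. Both day 3 libraries were below both 72 h libraries, the mean being 2.25-fold lower, and the level remained 21.4-fold above untreated. Its log2 fold change of -1.17 ± 0.33 did not pass (adjusted p = 0.11). It passed with the Wald test of DESeq2, with no filter on low counts, with the replicate letter as a block and when only these 4 libraries were fitted, and it ran from -2.00 to -1.06 over 10 alternatives. At day 8 it stood at 158 and 61.0 CPM and at day 14 at 41.6 and 30.4 CPM.

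TP53I3, a quinone oxidoreductase-like gene induced by p53, went from 69.6 and 50.9 CPM to 26.1 and 21.6 CPM (-1.33 ± 0.22, adjusted p = 0.0089). It lost its call without replicate B at 72 h or without replicate C at day 3. GDF15, a secreted stress factor, had 2.97 and 2.68 CPM untreated, 326 and 333 CPM at 72 h and 109 and 102 CPM on day 3. Its replicates were nearly equal at both times, yet its log2 fold change of -1.64 ± 0.58 did not pass (adjusted p = 0.25). FDXR, the mitochondrial ferredoxin reductase, stood at 230 and 255 CPM and then 158 and 136 CPM (-0.72 ± 0.25, adjusted p = 0.23), and XPC, which finds lesions for nucleotide excision repair, at 249 and 241 CPM and then 162 and 156 CPM (-0.62 ± 0.16, adjusted p = 0.075). All 3 passed with no filter on low counts. GDF15 also passed when only these 4 libraries were fitted, and XPC with the Wald test of DESeq2.

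The remaining targets had smaller estimates. MDM2, the ubiquitin ligase that degrades p53, stood at 1976 and 1111 CPM and then 1116 and 1003 CPM (-0.54 ± 0.28), with libraries that overlapped. BTG2, an antiproliferative gene, BBC3 (the death activator PUMA), SESN1 and DDB2, a damage sensor of excision repair, had estimates from -0.53 to -0.42. BAX, an executioner of mitochondrial death, had -0.40 ± 0.26, and the death receptor FAS 0.04 ± 0.27. Over the whole list, 33 of 36 estimates were below 0, the median was -0.43, and 23 genes (63.9%) had both day 3 libraries below both 72 h libraries, beside 19.3% of all tested genes. Such a share was not particular to p53 targets: it was 60.4% for cytosolic ribosomal proteins and 54.2% for NF-kappaB targets, whose median was also -0.43. On day 3, 32 of the 36 p53 targets were still higher than in untreated cells, with a median log2 fold change of 1.75, beside 15.1% of all tested genes higher in that comparison. That comparison shares the day 3 libraries with the one above.

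**Figure D4:**
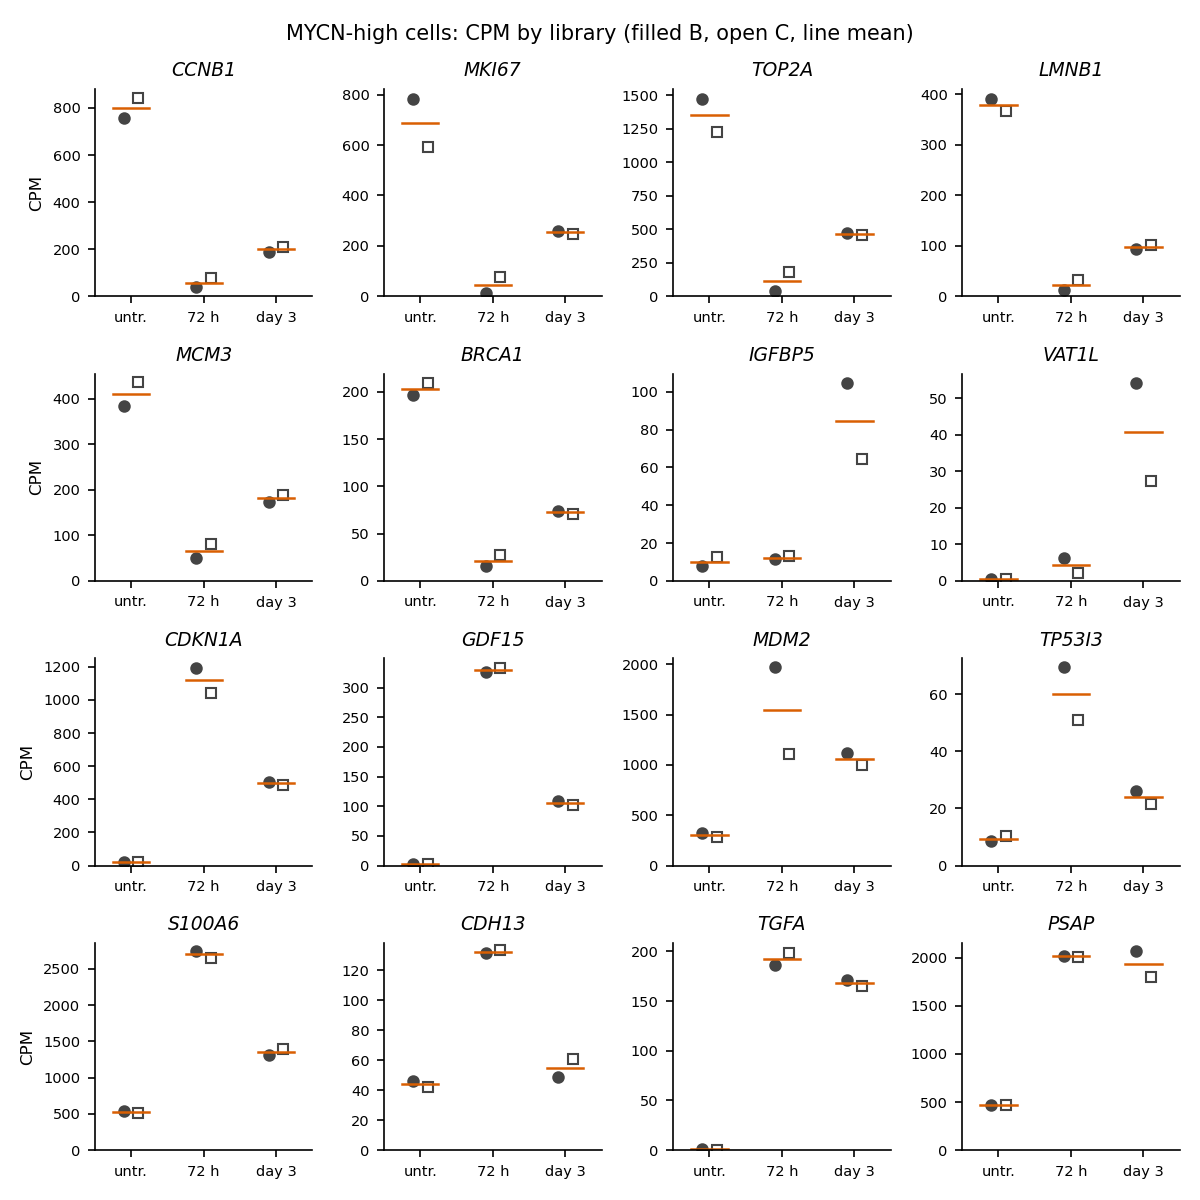
CPM of 16 genes in the 6 MYCN-high libraries from untreated cells, 72 h of doxorubicin and day 3, with replicate B as filled circles, replicate C as open squares and means as lines; each panel has its own axis from 0. CCNB1, MKI67 and TOP2A rose and stayed below untreated, IGFBP5 and VAT1L rose above untreated, CDKN1A and GDF15 were lower on day 3 without passing the test, and TGFA and PSAP stood near their 72 h levels.

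Of the 13 genes that fell, TP53I3 was the only member of the p53 list. S100A6, a calcium-binding protein, was the most abundant: it had 539 and 519 CPM untreated, 2748 and 2652 CPM at 72 h and 1314 and 1390 CPM on day 3 (-0.998 ± 0.21). ANXA4, an annexin that binds membranes with calcium, went from 115 and 108 CPM to 68.6 and 62.8 CPM (-0.76 ± 0.18). Both were still over 2.5-fold above untreated on day 3. IL32, a proinflammatory cytokine, went from 49.9 and 37.8 CPM to 11.8 and 10.6 CPM (-1.97 ± 0.44), beside 17.2 and 12.5 CPM in untreated cells. Its day 3 level did not pass against untreated cells in edgeR's test (-0.41 ± 0.44, adjusted p = 0.52). CDH13, the membrane-anchored T-cadherin, went from 131 and 134 CPM to 48.8 and 60.5 CPM (-1.28 ± 0.28), close to the 46.4 and 42.1 CPM of untreated cells.

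ADAMTS1, a secreted metalloprotease, fell by 1.22 ± 0.28 on the log2 scale, the receptor-like DCBLD1 by 1.12 ± 0.26 and the integrin subunit ITGB5 by 1.04 ± 0.22, all to 23.0% to 64.8% of untreated. HS1BP3 fell by 0.89 ± 0.19, the transcription elongation factor ELL2 by 0.71 ± 0.17 and SH2D5, at 4.54 and 4.50 CPM before and 0.924 and 1.07 CPM after, by 2.18 ± 0.50. PSG5, a pregnancy-specific glycoprotein, was under 1 CPM in all 4 libraries and at 0 in replicate B of day 3, so no fold is given. The 13 lost their calls without replicate B at 72 h or without replicate C at day 3, TP53I3 was the 1 that passed without replicate B at day 3, and 6 of them passed without replicate C at 72 h. With the replicate letter as a block, 29 genes fell.

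Among growth and biosynthesis genes that MYC proteins drive, 1 passed, beside 1.8% of all tested genes. At that share, counts this small do not set these lists apart from all genes. Of 29 tested MYC targets, RANBP1, a regulator of nuclear transport, was the 1 that rose, from 103 and 113 CPM to 156 and 203 CPM (0.73 ± 0.17), and the list's median was -0.02. Its estimate turned to -0.10 when scaled to the ERCC RNAs. ODC1, which makes polyamines, stood at 514 and 485 CPM and then 474 and 461 CPM (-0.10 ± 0.18), and NCL, the nucleolar protein nucleolin, at 2418 and 2010 CPM and then 2506 and 2554 CPM (0.19 ± 0.24). In untreated cells these 2 had stood at 1006 and 1130 CPM and at 4781 and 4721 CPM, so both were about as far below untreated on day 3 as at 72 h. No gene passed of 40 for ribosome biogenesis (median 0.05), of 53 for cytosolic ribosomal proteins (median -0.29) or of 13 in the MYC, MAX and MXD network (median -0.02). The ribosomal protein genes had 32 of 53 (60.4%) with both day 3 libraries below both 72 h libraries, beside 19.3% of all tested genes. MYCN itself stood at 633 and 1416 CPM and then 604 and 765 CPM (-0.58 ± 0.29), and MYC stood at 0.478 to 1.06 CPM.

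None of the lysosomal and inflammatory genes named next passed between 72 h and day 3, and some stood close to their 72 h levels. PSAP, the precursor of the saposins that help degrade lipids in lysosomes, had 469 and 468 CPM untreated, 2016 and 2012 CPM at 72 h and 2074 and 1804 CPM on day 3 (-0.05 ± 0.18). CTSD, the lysosomal protease cathepsin D, had 224 and 202 CPM and then 230 and 196 CPM (0.00 ± 0.25). No gene passed of 35 in the lysosome and autophagy list (median -0.15), beside 1.8% of all tested genes. TGFA, a ligand of the EGF receptor, was under 1 CPM in untreated cells, at 186 and 199 CPM at 72 h and at 171 and 166 CPM on day 3 (-0.19 ± 0.32). IL8, a chemokine, had 14.3 and 18.6 CPM and then 18.6 and 13.4 CPM (-0.04 ± 0.53), and the adhesion molecule VCAM1 274 and 290 CPM and then 192 and 251 CPM (-0.35 ± 0.43). LIF, a cytokine of the IL-6 family, had 21.7 and 19.7 CPM and then 11.6 and 13.9 CPM (-0.70 ± 0.40), and TXNIP, which restrains glucose uptake, 338 and 334 CPM and then 201 and 211 CPM (-0.70 ± 0.28). IL6 was under 1 CPM in all 4 libraries. ABCB1, the efflux pump that exports doxorubicin, stood at 69.6 and 81.2 CPM and then 90.1 and 97.2 CPM (0.31 ± 0.33).

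No gene passed in the lists of 24 NF-kappaB targets (median -0.43), 34 interferon-stimulated genes (0.07), 38 extracellular matrix genes (-0.26), 23 YAP and TGF-beta targets (-0.43), 30 integrated stress response genes (-0.17) or 28 immediate-early and AP-1 genes (-0.26). The same held for 15 tested genes of the BCL2 family (-0.11), 30 of glycolysis and hypoxia (-0.05), 22 heat shock chaperones (0.01), 20 endoplasmic reticulum chaperones (-0.16) and 35 respiratory chain subunits (-0.03). Nor did any of 6 tested adrenergic, 14 mesenchymal, 4 leukocyte, 4 endothelial and 3 epithelial markers pass, or any of 3 tested structured and mitochondrial RNAs. Of all tested genes 1.8% passed, so lists of this size would hold few calls at that share. A gene that did not pass is not shown to be unchanged. Both day 3 libraries lay below both 72 h libraries for 54.2% of NF-kappaB targets, 39.1% of YAP and TGF-beta targets and 36.8% of matrix genes. The share was 9.09% for heat shock chaperones and 16.7% for glycolysis and hypoxia, beside 19.3% of all tested genes. In counts simulated for this comparison the procedure found 32% of the genes changed 2-fold and 79% of those changed 4-fold. Those counts had independent replicates and the same mean in every unchanged library, so the shares may differ in the real libraries.

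In MYCN-low cells, over the same 3 days, 8 of 14793 genes passed (0.0541%), of which 1 was higher (ABHD2, 0.00676%) and 7 were lower (0.0473%). TP53I3 and XPC, both p53 targets, and PCNA were among those that fell. TP53I3 went from 90.7 and 63.8 CPM to 25.6 and 25.1 CPM (-1.61 ± 0.22), which is the 1 gene that also fell in MYCN-high cells. PCNA went from 242 and 227 CPM to 96.5 and 102 CPM (-1.24 ± 0.19), beside 0.14 ± 0.19 in MYCN-high cells, and the difference of 1.38 ± 0.27 did not pass (adjusted p = 0.14). XPC fell by 1.04 ± 0.16, beside -0.62 ± 0.16 in MYCN-high cells. With single MYCN-low libraries left out, 0 or 1 of the genes passed. The 46 G2 and mitosis genes had a median of 0.93 with none called, and the DNA replication, recombination and histone lists had medians of 0.21, 0.21 and -0.02, with PCNA the 1 call. The p53 targets had a median of -0.46.

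The difference between the states was tested for every gene, and none passed in edgeR (832 at an unadjusted p under 0.05). The Wald test of DESeq2 called 94, and in edgeR 284 passed with no filter on low counts, 13 with the replicate letter as a block, all with the larger log2 fold change in MYCN-high cells, and 159 when the MYCN-high replicate C at 72 h was left out. Per list, the median difference, MYCN-high minus MYCN-low, was 0.88 for G2 and mitosis, 0.99 for DNA replication, 1.14 for recombination, 1.17 for histones and 0.12 for p53 targets. CCNB1 went from 10.3 and 13.6 CPM to 18.3 and 20.7 CPM in MYCN-low cells, and its difference in log2 fold change was 1.07 ± 0.39 (adjusted p = 0.63). LMNB1 had 8.81 and 10.7 CPM and then 6.43 and 10.2 CPM there, and a difference of 2.32 ± 0.46 (adjusted p = 0.14). Some genes went against the list medians, with a larger estimate in MYCN-low cells. TOP2A had 2.37 ± 0.52 there, beside 2.07 ± 0.47 in MYCN-high cells. RRM2 had 3.54 ± 0.83, beside 2.16 ± 0.50, from only 0.195 and 0.435 CPM in MYCN-low cells at 72 h. The rise of the cell cycle genes is therefore given for MYCN-high cells, and was not shown to be particular to them.

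On the later days, the medians of the 3 lists given next went on in the direction they had taken by day 3. The median of the G2 and mitosis genes was 60.9% and 58.6% of untreated on day 8 and 92.0% and 82.0% on day 14. DNA replication genes stood at 66.9% and 86.8% and then 97.9% and 90.5%. The p53 targets came down to 166% and 120% on day 8 and 116% and 113% on day 14. TGFA, which had not passed over the first 3 days, stood at 59.8 and 30.1 CPM on day 8 and 3.69 and 7.76 CPM on day 14, and PSAP at 711 and 530 CPM and then 406 and 499 CPM. IGFBP5 differed between replicates on day 14, at 22.4 and 102 CPM.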

How the data were processed

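RNA sequencing read counts per gene symbol were used from the deposited table, which holds 23367 genes and 92 ERCC spike-in RNAs in 19 libraries. Reads were handled with STAR 2.4.0h1 and HTSeq on hg19, per the submitters' processing notes, and the strand setting is not given in the sources used here. Per the labels' protocols ribosomal RNA was removed, while the molecule field names polyA RNA. Replicates are labelled as biological duplicates, and 2 libraries a group limit every p-value.

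ERCC counts were left out, filterByExpr on the 10 groups kept 14793 genes, and a quasi-likelihood fit with TMM scaling and 1 coefficient a group was made in edgeR 4.0.16 (R 4.3.3, 9 residual degrees of freedom, biological coefficient of variation 0.204), with Benjamini-Hochberg adjustment over all tested genes and a threshold of 0.05. Standard errors (SE) were taken from each estimate and its F statistic. CPM are counts over the TMM-scaled library total. Genes named were 30 markers, the 12 largest changes per direction (absolute log2 fold change of at least 1, at least 5 CPM, libraries not overlapping), and up to 4 called members of each of 29 lists by smallest p, some left out for length, and others chosen after their values were seen. The members and lists were chosen with earlier results of these data known. Promoters came from RefSeq (GRCh38.p14) by symbol. On simulated counts for this comparison (14239 genes, 100 changed at each fold), 117 calls held 6 false ones, and no gene was called when none was changed. The simulation gave every group the gene's mean over all libraries, apart from the changed genes, and drew replicates independently. It did not hold the wider spread at 72 h, the low 72 h levels of cell cycle genes or the replicate correlations, so real rates may differ. Alternatives were size factors or the Wald test of DESeq2 1.42.0, no filter, a replicate block, ERCC scaling, only the libraries compared, and each library left out. Figures used Python 3.11.15 and matplotlib 3.10.9. Results on some genes are not reported here. The labels do not say what the replicate letters mark. Differences between replicates B and C correlated across genes between all 10 pairs of MYCN-high times (0.10 to 0.22) and all 6 pairs of MYCN-low times (0.10 to 0.32). Where a fit with the letter as a block changed the call of a named gene, this is stated. Counts per gene list from that fit are not given.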

Additional observations from a re-analysis of the deposited data

How the results depend on the processing

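The count of genes called between 72 h and day 3 in MYCN-high cells, 266, was 440 with the Wald test of DESeq2, 691 with no filter on low counts, 0 with ERCC scaling and 95 with only the 4 libraries compared, and it ran from 0 to 365 with single libraries left out. It was 259 with the size factors of DESeq2. In MYCN-low cells the count of 8 became 96, 289, 0 and 25 in the same order of the first 4 settings and ran from 0 to 1 with single libraries left out. The difference between the states, with 0 called, became 94 with the Wald test and 284 with no filter, and ran from 0 to 159 with single libraries left out. The cause of these differences was not tested. The MYCN-high split of 253 higher and 13 lower became 494 and 197 with no filter, 379 and 61 with the Wald test and 79 and 16 with only the 4 libraries compared.

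With the replicate letter as a block, 363 genes were called in MYCN-high cells, 9 in MYCN-low cells and 13 in the difference between the states. Among the genes named, CDKN1A and AURKA gained a call with the block and none lost one.

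Some estimates turned in sign, most of them uncalled. Not all were near 0 in the main fit: BAX had -0.40, MYCN -0.58, IL6 -0.83 and the called RANBP1 0.73. With ERCC scaling FAS went to -0.94, MYC to -1.03, NCL to -0.69, ABCB1 to -0.39, PCNA to -0.60 and the called RANBP1 to -0.10, beside a shift of all genes of -0.76. With no filter FAS went to -0.026 and MYC to -0.037. With single libraries left out, BAX ran from -0.74 to 0.059, FAS from -0.20 to 0.34, MYCN from -1.04 to 0.12, MYC from -0.41 to 0.73, IL8 from -0.29 to 0.18, IL6 from -1.46 to 0.26, CTSD from -0.12 to 0.11 and PSAP from -0.16 to 0.043. PLK1 and E2F1, whose 72 h libraries lay far apart, passed without replicate C at 72 h.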

Other observations

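Genes known from neurons were looked at after their values were seen, and only as values. CNTNAP2, a neurexin-family protein of the axon, went from 11.9 and 10.9 CPM at 72 h to 32.8 and 24.0 CPM on day 3 (log2 fold change 1.32 ± 0.29, beside 57.1 and 65.1 CPM untreated). ELAVL2, a neuronal RNA-binding protein, went from 9.88 and 7.32 CPM to 20.4 and 18.2 CPM (1.16 ± 0.22), CBLN2, a synapse organiser, from 19.9 and 13.2 CPM to 55.1 and 39.3 CPM (1.51 ± 0.34), SEMA5A, an axon guidance protein, from 5.22 and 2.15 CPM to 13.5 and 8.18 CPM (1.55 ± 0.37), and LRRN3 from 1.49 and 2.15 CPM to 6.47 and 5.81 CPM (1.76 ± 0.43). These 5 rose. LRRN3 was above its untreated 1.61 and 1.71 CPM, and the untreated levels of CBLN2 were 54.8 and 33.7 CPM. They are single genes picked from 166, and no group was tested.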
